A study of Mus musculus with 2 samples.

Results

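Type 2 conventional dendritic cells were picked out of 2 single-cell RNA libraries of tumour immune cells, and they made up 114 of 11197 barcodes that passed the quality limits. A barcode was a member where it had at least 1 UMI (unique molecular identifier, 1 counted RNA molecule) of Cd209a, at least 5 of H2-Ab1 and at least 1 of Clec10a, Mgl2 or Flt3. It also had to have no Xcr1 and no Cd79a UMI, at most 5 UMIs over the 3 C1q genes, at most 1 over the 3 Cd3 genes and at most 1 of Fscn1. The KPT library gave 63 members of 5693 kept barcodes and the KP library 51 of 5504.

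KPT is the library whose genotype label is Tdg KO, and KP the one whose label is WT. The product of Tdg, thymine DNA glycosylase, removes thymine from mismatches in DNA and also works in active demethylation. Both libraries came from allograft tumours in mice, called subcutaneous KP tumours in the series design and taken on day 14 of growth, and live cells bearing CD45, the common surface protein of white blood cells, were sorted before capture in droplets. Neither the labels nor the design state whether tumour cells or host cells have the genotype, which alleles the tumour line carries, the strain or age of the mice, or how many tumours were pooled. With 1 library per group there was no replicate, so no test was made, and each interval given covers counting error only, not the spread between barcodes, tumours or mice.

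Dendritic cells take up antigen in tissues and show it to T cells on MHC molecules. The type 2 conventional subset, which depends on Irf4 and carries Sirpα, is known mainly for presenting peptides on MHC class II to CD4 T cells, while the type 1 subset, marked by Xcr1 and Clec9a and dependent on Irf8 and Batf3, cross-presents antigen to CD8 T cells. Type 2 cells are heterogeneous and share many genes with monocyte-derived cells. In tumours both kinds can mature into a migratory state marked by Fscn1 and Ccr7.

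The members were deeply sampled. The KPT members held 759708 UMIs, with a median of 12610 UMIs (range 928 to 21421) and 2803 genes per barcode. In the KP members there were 637349 UMIs, with a median of 12230 (range 4839 to 30621) and 2593 genes. The libraries as a whole held 52586319 UMIs in 5896 barcodes (KPT) and 39819010 UMIs in 5604 barcodes (KP). The libraries had 8 barcode sequences in common, none of which was a member in KPT or in KP. Tdg itself was too low to check the genotype label here, at 17 UMIs in the KPT members and 9 in the KP members (ratio of CPM 1.59, 95% interval 0.668 to 4.04).

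Near the limits of the rule the members looked like this. Cd209a, which encodes a C-type lectin related to human DC-SIGN, had a median of 10 UMIs per member in both libraries, and 8 KPT members and 1 KP member had a single UMI of it. Barcodes that met every condition except Cd209a numbered 77 in KPT and 84 in KP. The limit on Cd3 alone kept out 78 KPT and 44 KP barcodes, and these held a median of 25 and 27 Cd3 UMIs. The H2-Ab1 limit alone kept out 17 KPT and 16 KP barcodes with 0 to 4 UMIs, while 3 KPT and 2 KP members stood just inside it at 5 to 9 UMIs. Among the members Clec10a was detected in 41 (KPT) and 42 (KP) barcodes, Mgl2 in 34 and 22, and Flt3, the receptor for the growth factor that drives dendritic development, in 34 and 25. Since the rule asks for 1 of these, their joint detection is a product of the choice.

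The label was checked against dendritic markers that the rule did not use. Of 6 such genes all were detected in both libraries, with 408 UMIs over the KPT members and 289 over the KP members, a median of 5 UMIs per barcode in each. Kmo, which encodes kynurenine 3-monooxygenase, stood at 119.8 CPM (a gene's summed UMIs, scaled to a total of 1000000) in KPT and 125.5 CPM in KP members, against 0.98 and 0.59 CPM in barcodes with Cd3, which are T cells by that rule. In dendritic barcodes with Xcr1, Kmo was at 79.54 and 47.66 CPM. Sirpa, the inhibitory receptor that marks the type 2 subset, was at 75.03 CPM in KPT and 81.59 CPM in KP members, and at 8.37 and 0 CPM in dendritic barcodes with Xcr1. Barcodes with over 5 C1q UMIs had more Sirpa than the members, at 126 and 134.8 CPM. Irf4, the transcription factor of the subset, had 102.7 CPM in KPT and 67.5 CPM in KP members, against 6.28 and 0 CPM in Xcr1 barcodes. Itgax had 150.1 CPM in KPT and 98.85 CPM in KP members. Its level was 119.3 and 134.6 CPM in Xcr1 barcodes and 24.4 and 13.16 CPM in Cd3 barcodes. Dpp4 had 76.35 and 73.74 CPM in members, 69.08 and 92.52 CPM in Xcr1 barcodes and 22 and 21.96 CPM in Cd3 barcodes. Itgax and Dpp4 were thus above Cd3 barcodes but did not set members apart from Xcr1 barcodes. In barcodes with over 5 C1q UMIs Itgax was higher than in members, at 194.2 and 149.2 CPM. Dpp4 was lower there, at 16.46 and 7.19 CPM. Of the 6 genes, only Zbtb46, a factor typical of conventional dendritic cells, was not clearly above Cd3 barcodes. It had a UMI in 14.3% of KPT and 7.84% of KP members at median depths of 12610 and 12230 UMIs, against 8.79% and 6.10% of Cd3 barcodes at 6672 and 6176 UMIs. Thinned to 3000 UMIs, Zbtb46 was found in 1.64% of 61 KPT and 0% of 51 KP members, with 2 shallower KPT members left out. In the part of the Cd3 barcodes that was thinned (468 in KPT, 469 in KP) its shares were 1.92% and 2.99%. Its shares in members were therefore read as background.

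Of the marker lists of other cells, that of plasmacytoid cells set some members apart. Siglech, Ly6d, Ccr9, Klk1 and Cox6a2 mark plasmacytoid dendritic cells, which make type I interferon. In 6 KPT members these genes summed to 32 to 136 UMIs and in 2 KP members to 103 to 184, whereas no other KPT member had more than 2 and no other KP member more than 6. The same 8 barcodes had Siglech at 17 to 37 UMIs (KPT) and 43 to 44 (KP), Irf8 at 1596 and 1385 CPM, and 0 CPM of Ifitm1 and S100a4. They go against the label and are called plasmacytoid-marker barcodes below. The limit of 10 such UMIs was set after seeing the values, and the main results are also given without them. Kmo was at 201.4 CPM (KPT) and 244.5 CPM (KP) in these 8 barcodes, so it did not mark type 2 cells alone. Without them Kmo was at 112.2 and 120.8 CPM in the members. The UMI totals of the 6 dendritic genes above include these barcodes.

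The remaining marker lists were low, apart from those of monocytes, type 1 dendritic cells and migratory dendritic cells. All 5 basophil markers were at 0 UMIs in KPT members and 4 of 5 in KP members, and Ms4a1 and Pax5 of B cells were at 0 in both. T cell markers summed to 52 UMIs in KPT and 42 in KP members, with a median of 0 per barcode in each. NK cell markers gave 158 and 140 UMIs, of which 1 barcode in each library held 103 and 102. Neutrophil markers gave 152 UMIs in KPT members, 87 of them in 1 barcode, and 21 in KP members. Macrophage markers other than C1q gave 90 and 28 UMIs with Mertk at 0 in both. Monocyte markers were present in most members, with 1046 UMIs in KPT (median 10 per barcode) and 1261 in KP (median 18), or 1377 and 1979 CPM. At least 2 such UMIs were in 50 of 63 KPT and 45 of 51 KP members, although Chil3 was at 0 in both and Vcan at 0 in KPT. Type 1 dendritic markers other than Xcr1 gave 372 UMIs in KPT and 163 in KP members. At least 2 of these UMIs were in 49 KPT and 34 KP members. Migratory dendritic markers other than Fscn1 gave 159 and 256 UMIs, with at least 2 in 17 KPT and 22 KP members. No doublet caller was run, and 18 KPT and 11 KP members had at least 2 UMIs of markers of T, NK, B, neutrophil, basophil or plasmacytoid cells.

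**Figure D1:**
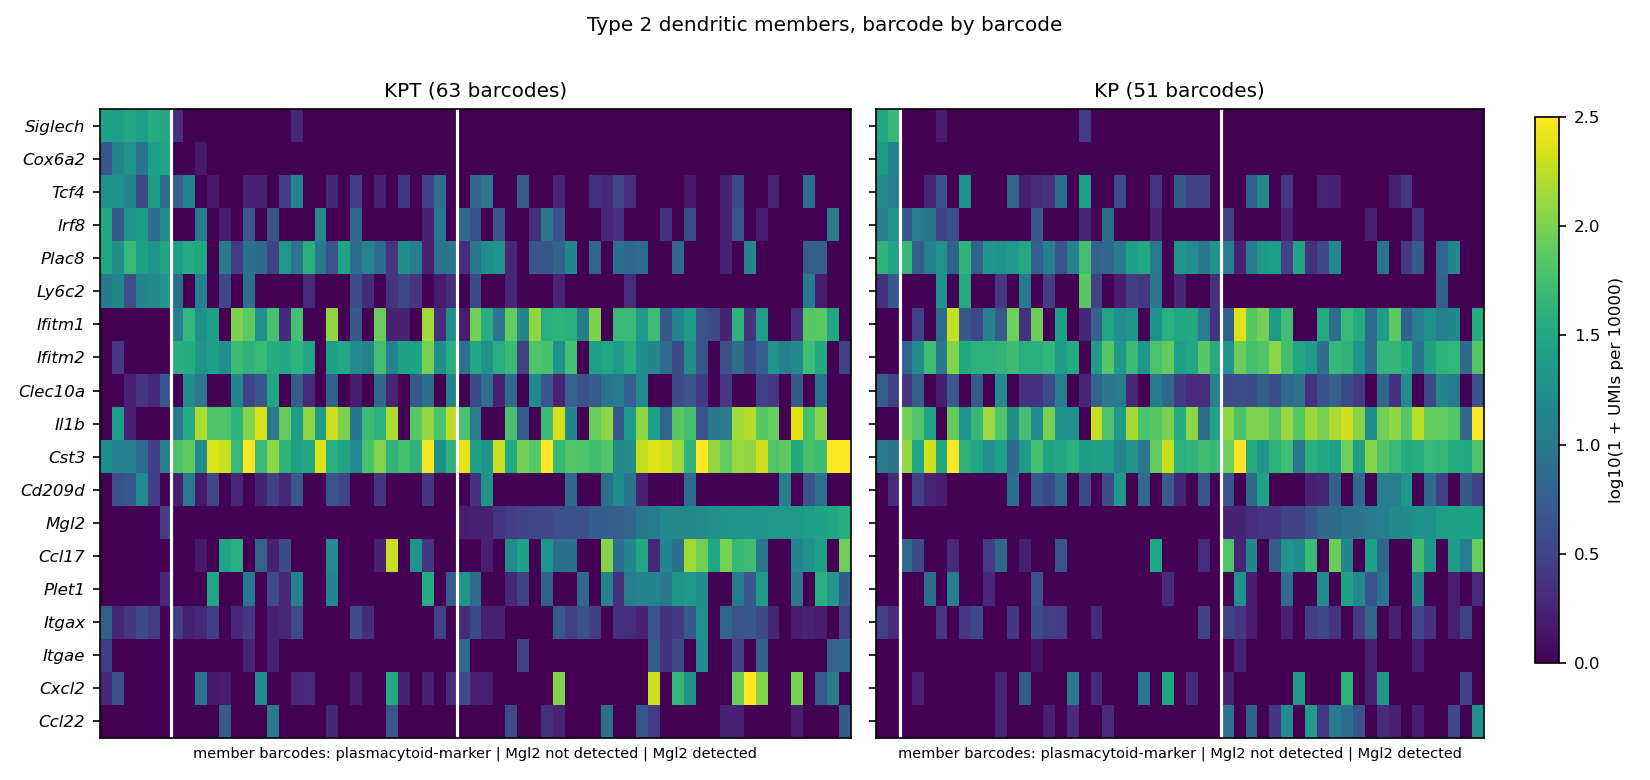
Heat map of 19 genes (rows) in every member barcode (columns), KPT left and KP right, as log10(1 + UMIs per 10000). White lines divide the plasmacytoid-marker barcodes (6 in KPT, 2 in KP), the other barcodes without Mgl2 (24 and 27) and those with Mgl2 (33 and 22), which run from low to high Mgl2. Siglech and Cox6a2 fill the first block, Ifitm1, Il1b and Cst3 the other blocks.

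By CPM the members' highest genes included Cd74, the invariant chain that guides MHC class II (14690 CPM in KPT, 17440 CPM in KP members), Cst3, the cathepsin inhibitor cystatin C (10150 and 5771 CPM), and H2-Aa, an MHC class II chain (7273 and 8157 CPM). Il1b, which encodes the cytokine interleukin-1β, was at 6749 CPM in KPT and 7716 CPM in KP members. The same gene had 576 and 1764 CPM in Xcr1 dendritic barcodes and 2344 and 2756 CPM in C1q phagocytes (barcodes with over 5 C1q UMIs). S100a4, a calcium-binding protein of motile cells, had 4462 and 4691 CPM in members against 20.9 and 207.5 CPM in Xcr1 barcodes. In dendritic barcodes with Fscn1 and Ccr7, S100a4 was at 5370 and 2805 CPM and Il1b at 4999 and 701 CPM. These levels describe barcodes that were chosen by their RNA, and no test was made of them.

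Genes were also ranked by their level in the members relative to all other kept barcodes. Cd209d, a paralog of Cd209a, stood at 14.7 times (KPT) and 39.6 times (KP) the CPM of the other barcodes. Ccl17, a chemokine that attracts Ccr4-bearing T cells, was at 11.8 and 13.5 times. Dendritic barcodes with Fscn1 and Ccr7 (11 in KPT, 8 in KP) had more Ccl17 than the members, at 2359 and 1478 CPM. Kmo stood at 10.6 and 13.1 times, Fcgrt (the neonatal Fc receptor, which salvages IgG) at 10.3 and 14.8 times, and Ifitm3 (an antiviral membrane protein) at 10.2 and 9.04 times. Others by the same rule were Cfp, the complement factor properdin (8.83 and 7.67 times), the MHC class II chaperone gene H2-DMb1, the aspartic protease gene Napsa (9.17 and 7.12 times), Plbd1, Wfdc17, Ms4a4c, Ms4a6c, Cd300a and Ifi30, a lysosomal thiol reductase. Siglech also passed this rule, through the plasmacytoid-marker barcodes. That ranking is against all other barcodes together. Plbd1 was higher in Xcr1 barcodes, at 1061 and 1250 CPM, than in members, at 613.4 and 621.3 CPM. H2-DMb1 was at 822.7 and 988.5 CPM in members and 749.4 and 793.4 CPM in Xcr1 barcodes. Ifi30 was at 1641 and 1804 CPM in members and 1256 and 1273 CPM in Xcr1 barcodes. Cfp, Napsa, Wfdc17, Ms4a4c, Ms4a6c and Cd300a were higher in members than in Xcr1 barcodes and C1q phagocytes. Among costimulatory genes, Cd86 was at 143.5 CPM in KPT and 163.2 CPM in KP members and Cd83 at 706.9 and 731.2 CPM, while Cd80 stood at 111.9 and 134.9 CPM, against 18.8 and 33.6 CPM in Xcr1 barcodes and 351 and 200 CPM in the Fscn1 and Ccr7 barcodes.

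**Figure D2:**
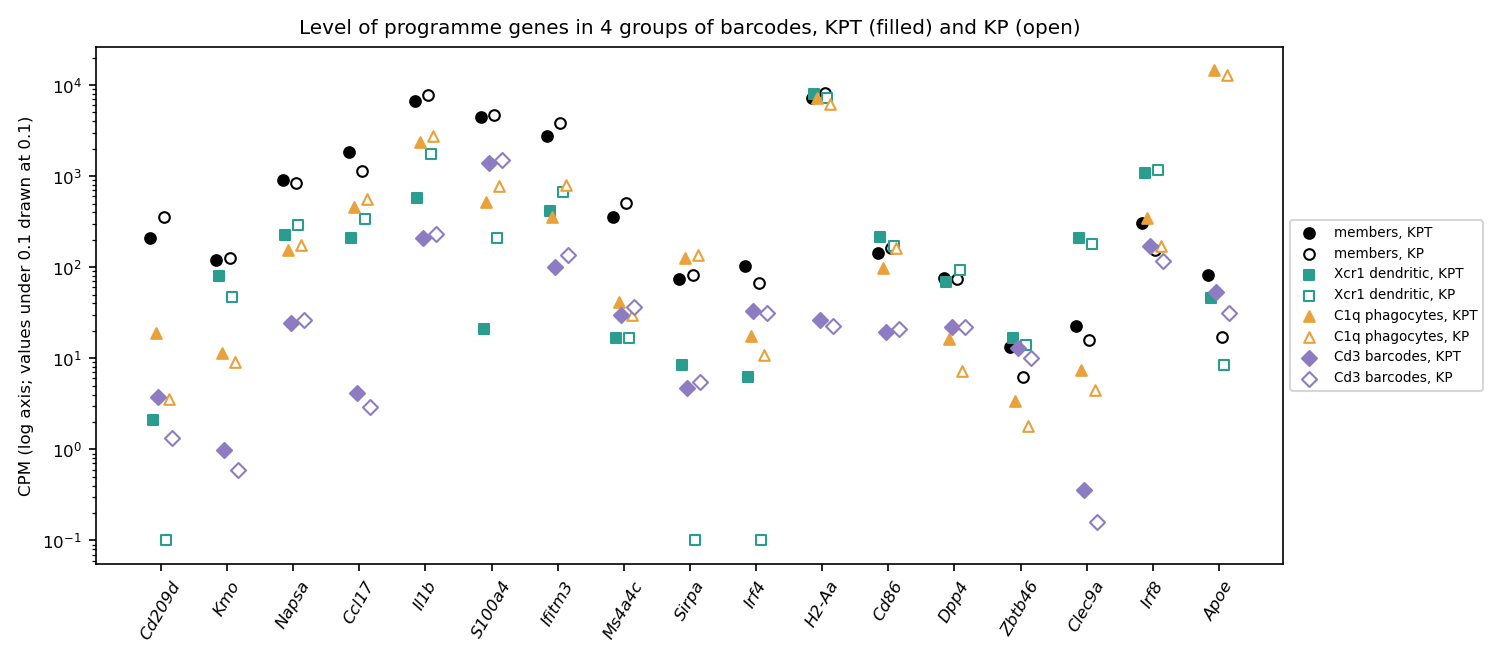
Level of 17 genes on a log axis of CPM in members, Xcr1 dendritic barcodes, C1q phagocytes and Cd3 barcodes, with KPT filled and KP open. Members stand above the other 3 groups drawn for Cd209d, Ccl17, Napsa, Il1b and Irf4, and below Xcr1 barcodes for Clec9a and Irf8, while Zbtb46 is about as high in Cd3 barcodes as in members.

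Within the members, those with Mgl2 (a galactose-type lectin, CD301b) were set against those without it in each library. Leaving out the plasmacytoid-marker barcodes, Mgl2 was detected in 33 of 57 KPT and 22 of 49 KP members. Median depth was 11300 UMIs with Mgl2 and 13140 without it in KPT, and 14020 and 12000 in KP, so the deeper side was not the same one in the 2 libraries. Of 1381 genes compared, 108 were at least 1.5 times higher with Mgl2 in KPT and 176 in KP. In both libraries 49 were higher (3.55%), 70 at least 1.5 times lower in both (5.07%), and 11 passed that fold in opposite directions (0.797%). Other genes differed in 1 library, such as Ccl22, whose level with Mgl2 was 0.866 times that without it in KPT and 38.6 times in KP. Il1b was at 0.882 times in KPT and 2.04 times in KP. This split and the genes named for it were chosen after their values were seen.

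Among the genes higher with Mgl2 in both libraries, Ccl17 was at 2684 CPM with and 1239 CPM without Mgl2 in KPT, and at 2376 and 204 CPM in KP. Most Ccl17 UMIs without Mgl2 lay in 1 barcode of each library (263 UMIs in KPT, 41 in KP). H2-Eb1, an MHC class II chain, had 8476 and 4391 CPM in KPT and 9470 and 4335 CPM in KP. Irf4 was 3.02 times higher with Mgl2 in KPT (95% interval 1.73 to 5.53) and 3.09 times in KP (1.54 to 6.61). Il1r2, the decoy receptor for interleukin-1, was higher 2.07 and 4.18 times, Plet1, a membrane protein, 1.98 and 4.98 times, Cdh1 (E-cadherin) 3.30 and 3.99 times, and Fabp5, a fatty acid carrier, 2.92 and 8.43 times.

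Among the genes lower with Mgl2 in both libraries, Ly6c2, the monocyte surface antigen, had 54.7 CPM with and 200.4 CPM without Mgl2 in KPT, and 25.1 and 578 CPM in KP. Ccr2, the receptor that brings monocytes into tissue, was at 73.8 and 236.9 CPM in KPT and at 93.2 and 296.6 CPM in KP. Plac8 had 0.361 times the level in KPT and 0.383 times in KP, Cd14 (a co-receptor for lipopolysaccharide) 0.370 and 0.456 times, Lyz2 (lysozyme) 0.113 and 0.534 times, and Bst2 (tetherin, an interferon-induced antiviral protein) 0.399 and 0.261 times. Gzma and Ccl5 were also lower with Mgl2, but 1 barcode without Mgl2 in each library held 67 Gzma UMIs, and the same barcode held 41 Ccl5 UMIs in KPT and 158 in KP.

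Between libraries the share of members was close. Members were 1.11% of kept barcodes in KPT (95% Clopper-Pearson interval 0.851 to 1.41) and 0.927% in KP (0.691 to 1.22), a ratio of 1.19 (0.813 to 1.76). Without the plasmacytoid-marker barcodes the ratio was 1.13 (0.754 to 1.68). Xcr1 dendritic barcodes numbered 59 in KPT and 35 in KP, a ratio of shares of 1.63 (1.06 to 2.55). As a share of all dendritic barcodes (members, Xcr1 barcodes and barcodes with Fscn1 and Ccr7) the members were therefore 47.4% in KPT and 54.3% in KP, a ratio of 0.873 (0.594 to 1.29). The direction thus depended on the denominator, and each of the member intervals included 1.

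Across genes, 3169 had at least 50 UMIs over the members of both libraries, of which 341 (10.8%) were at least 1.5 times higher in KPT and 143 (4.51%) at least 1.5 times lower, with a median log2 ratio of 0.04. With every barcode weighted equally instead of by its UMIs, 303 were higher and 202 lower. Without the plasmacytoid-marker barcodes 301 of 2943 were higher (10.2%) and 148 lower (5.03%). The same counts were 105 of 1850 higher (5.68%) and 138 lower (7.46%) in Xcr1 barcodes, and 948 of 5020 higher (18.9%) and 244 lower (4.86%) in C1q phagocytes. These are counts past a fold, not tests, and the fold is reached more easily by genes with few UMIs. The shares over all genes in members, 10.8% higher and 4.51% lower, are the reference for every list count below.

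Immediate early genes, which are transcribed within minutes of a stimulus, moved in both directions. Of 34 list members with at least 50 UMIs, 6 were at least 1.5 times higher in KPT and 1 lower, against 10.8% higher and 4.51% lower over all genes. The median log2 ratio was 0.13, against 0.04 over all genes, and 0.05 with barcodes weighted equally and under a stricter rule of membership. Without the plasmacytoid-marker barcodes the counts were 10 and 1 of 33, with a median of 0.24. Fosb, a subunit of the AP-1 transcription factor, had 567 UMIs in 47 of 63 KPT members and 171 UMIs in 37 of 51 KP members, or 746 CPM and 268 CPM (ratio 2.78, 2.34 to 3.32). The median member had 389 CPM of Fosb in KPT and 140 CPM in KP, and the highest 3157 and 1423 CPM. After thinning to 3000 UMIs, Fosb had a UMI in 62.3% of KPT members (interval 49.0 to 74.4) and 39.2% of KP members (25.8 to 53.9), so the values of the 2 libraries overlapped widely while their centres differed.

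Other members of the list also had ratios past 1.5. Egr1, a zinc finger factor, had 251 UMIs in KPT and 58 in KP members (ratio 3.63, 2.72 to 4.92), and 6.51 without the plasmacytoid-marker barcodes. Nr4a2, an orphan nuclear receptor, was at 419 CPM in KPT and 204 CPM in KP members (ratio 2.05, 1.67 to 2.54). Ier5 had a ratio of 1.91 (1.55 to 2.35), Nr4a3 of 1.53 and Dusp5, which inactivates ERK kinases, of 1.52. Fos itself was at 1.29, Jun at 0.926 and Junb at 0.887, and Fos reached 1.71 without the plasmacytoid-marker barcodes.

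Side by side, the Fosb ratio was 0.903 in Xcr1 barcodes (0.591 to 1.39), 1.97 in C1q phagocytes (1.73 to 2.25) and 1.27 in Cd3 barcodes, and the Nr4a2 ratio 1.33, 1.36 and 1.38. Differences between cell types were not tested. Among heat shock genes 4 of 18 were at least 1.5 times higher in KPT members and 0 lower, against 10.8% and 4.51% over all genes. The median was 0.28, and without the plasmacytoid-marker barcodes the counts were 4 and 0 and the median 0.37. Hspa1a and Hspa1b, near-identical copies of the inducible Hsp70 chaperone whose reads may be split between them, had ratios of 2.60 and 2.43. The Hspa1a ratio was 23.1 in Xcr1 barcodes, 1.37 in C1q phagocytes and 1.02 in Cd3 barcodes. Hspa1a was in 16 KPT and 17 KP members, with 35.5% and 36.8% of its UMIs in 1 barcode of each library.

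Nfkbia went the other way within the immediate early list. It encodes IκBα, the inhibitor of NF-κB that NF-κB itself induces. Its level was 1531 CPM in KPT and 2466 CPM in KP members (1163 and 1572 UMIs, ratio 0.621, 0.575 to 0.670), and the median member had 960 CPM in KPT and 2123 CPM in KP. It was detected in 52 of 63 KPT and 49 of 51 KP members. The ratio was 0.650 without the plasmacytoid-marker barcodes, 0.593 with Mgl2 and 0.718 without it. Xcr1 barcodes gave 0.717, C1q phagocytes 1.14 and Cd3 barcodes 0.867.

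**Figure D3:**
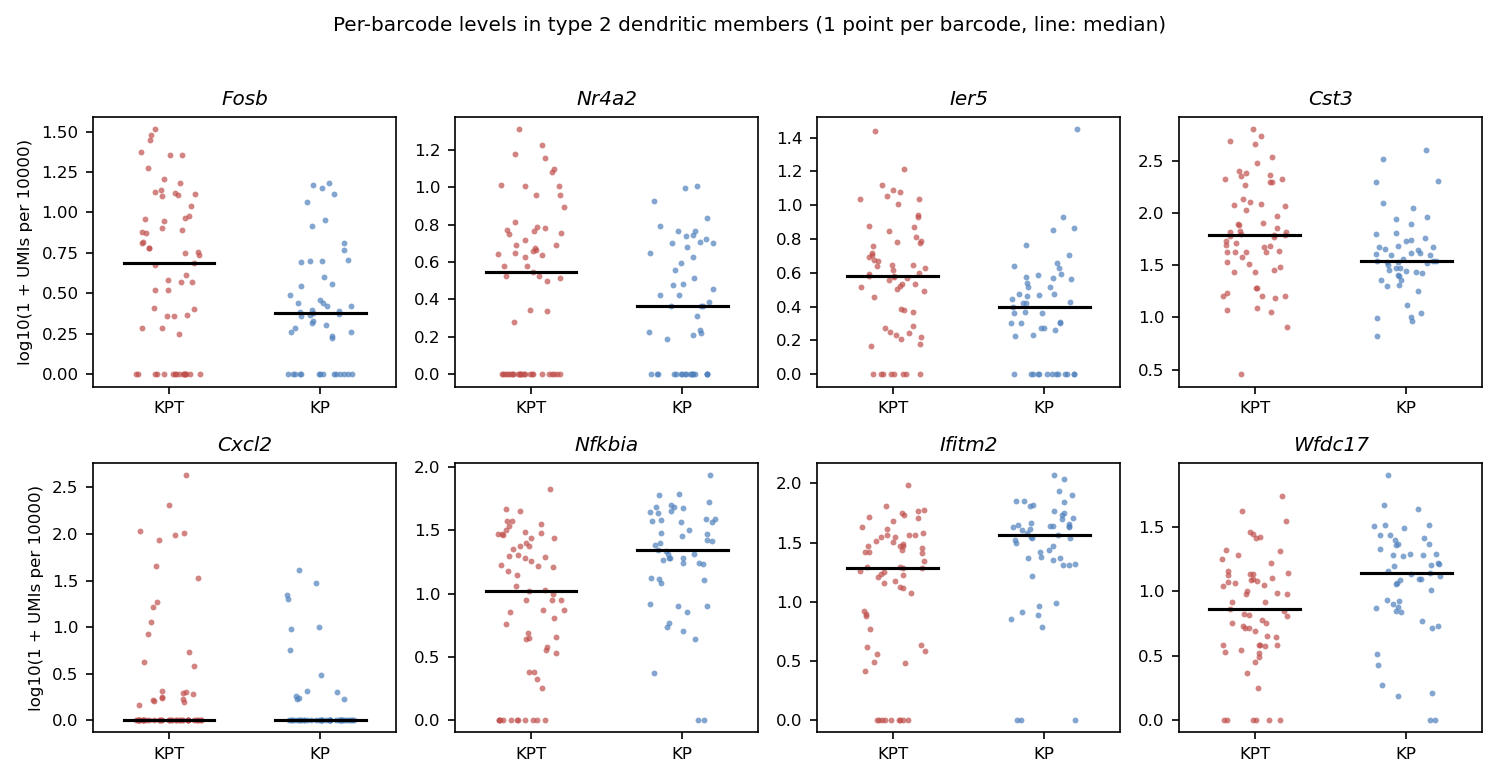
Per-barcode level of 8 genes in KPT (63 points) and KP (51 points) members, as log10(1 + UMIs per 10000), with the median as a line. Fosb, Nr4a2, Ier5 and Cst3 have the higher median in KPT, Nfkbia, Ifitm2 and Wfdc17 the lower one, and Cxcl2 rests on a few KPT barcodes with both medians at 0.

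Chemokines were the most divided list, with 5 of 13 at least 1.5 times higher in KPT members, 5 at least 1.5 times lower and a median log2 ratio of -0.55, which is the same with Cxcl3 at its bound. That median had no stable direction, at 0.13 with barcodes weighted equally, 0.34 among members with Mgl2 and 0.59 without the top barcode of each gene. Without the plasmacytoid-marker barcodes 4 were higher and 5 lower. Cxcl2, which attracts neutrophils through Cxcr2, had 1396 UMIs in 26 KPT members and 141 UMIs in 14 KP members, or 1838 CPM and 221 CPM (ratio 8.31, 6.98 to 9.95). In KPT 7 members had 50 or more Cxcl2 UMIs, all 7 of them with Mgl2, and no KP member did. The Cxcl2 ratio was accordingly 11.4 among members with Mgl2 and 1.69 among those without. It was 9.42 without the barcode with the most Cxcl2 UMIs in each library, 1.21 in Xcr1 barcodes and 0.490 in C1q phagocytes. Its close relative Cxcl3 had 64 UMIs in 3 KPT members and 0 in KP members, which is at least 17.9-fold higher against a floor of 3 UMIs over the KP members.

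Ccl3 and Ccl4, inflammatory chemokines that attract leukocytes, were higher in KPT members, with ratios of 3.09 (2.34 to 4.15) and 1.51 (1.36 to 1.69). Ccl3 was found in 26 KPT and 10 KP members, and Ccl4 fell to a ratio of 1.32 without the plasmacytoid-marker barcodes. In Xcr1 barcodes the same ratios were 0.346 and 0.328, the opposite direction. Ccl17 was at 1830 CPM in KPT and 1147 CPM in KP members (ratio 1.60, 1.46 to 1.75), with 1.13 among members with Mgl2 and 6.08 among those without. Most Ccl17 UMIs of the members without Mgl2 lay in 1 barcode of each library, so the 6.08 leans on single barcodes.

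On the lower side, Ccl22, which shares the receptor Ccr4 with Ccl17, had 51 UMIs in 14 KPT members and 133 UMIs in 18 KP members (ratio 0.322, 0.228 to 0.447). With Mgl2 the ratio was 0.148 and without it 6.59, so its direction held only where most of its UMIs were. The 6.59 rests on few UMIs, at 78.95 CPM in KPT and 11.98 CPM in KP. Among members without Mgl2, 1 KPT barcode held 13 Ccl22 UMIs, and no KP barcode had more than 1. Ccl9, Ccl5 and Cxcl9 had ratios of 0.574, 0.452 and 0.468. Cxcl10, an interferon-induced T cell attractant, had a ratio of 0.248, but 85.5% of its KP UMIs lay in 1 barcode, without which (and without the top KPT barcode) it was 0.958. Ccl5 likewise had 86.8% of its KP UMIs in 1 barcode and turned to 1.84 without the top barcodes. Cxcl9 was found in 3 KPT and 4 KP members only.

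The promoters of Cxcl2 and Nfkbia are shown because both genes are textbook NF-κB targets and had ratios on opposite sides of 1. They are RefSeq sequences of build GRCm38.p6, from 250 bases before to 50 after the gene start, printed 5′ to 3′ on the gene's strand, chr5:90903649-90903948 (plus strand) and chr12:55492598-55492897 (minus strand). Capitals mark GGNNTTTCC, a κB-type motif, on either strand.
Cxcl2: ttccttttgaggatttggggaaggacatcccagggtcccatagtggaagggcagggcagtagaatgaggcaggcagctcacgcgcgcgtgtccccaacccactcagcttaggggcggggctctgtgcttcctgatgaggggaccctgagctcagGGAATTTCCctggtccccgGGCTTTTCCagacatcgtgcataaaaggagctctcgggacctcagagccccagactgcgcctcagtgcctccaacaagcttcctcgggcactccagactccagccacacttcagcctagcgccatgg
Nfkbia: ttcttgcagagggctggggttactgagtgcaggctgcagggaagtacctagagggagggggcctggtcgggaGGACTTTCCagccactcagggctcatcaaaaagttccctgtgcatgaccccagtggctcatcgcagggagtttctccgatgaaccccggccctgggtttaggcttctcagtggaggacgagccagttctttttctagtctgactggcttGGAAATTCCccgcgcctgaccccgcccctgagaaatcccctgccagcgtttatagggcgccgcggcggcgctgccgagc
The Cxcl2 promoter held the motif from 96 and 77 bases before the gene start, both on the gene's strand, and the Nfkbia promoter from 178 bases before it and, on the opposite strand, from 29 bases before it. Of the 13 chemokine genes measured and Nfkbia, 10 had a promoter in the RefSeq table, and 6 of these held the motif (Cxcl2, Cxcl3, Ccl9, Cxcl9, Cxcl10 and Nfkbia), against 1913 of 32851 promoters in the table (5.82%). Among the genes with it, ratios were both above and below 1. A match is a description of the letters only.

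Antigen presentation differed little. Of 17 MHC class II list members, 1 was past 1.5-fold in KPT members and 0 lower, with a median log2 ratio of -0.06. Cd74 had a ratio of 0.843 (0.821 to 0.865), H2-Aa 0.892 and H2-Eb1 0.943. The 1 gene past the fold was Cst3, at 10150 CPM in KPT and 5771 CPM in KP members (ratio 1.76, 1.69 to 1.83). Its median per member was 6028 CPM in KPT and 3372 CPM in KP, and it was detected in all 114 members. The ratio was 1.93 with Mgl2 and 1.70 without it, and 1.94 without the top barcodes, against 1.02 in Xcr1 barcodes (where Cst3 stood at 30350 CPM in KPT and 29870 CPM in KP), 0.955 in C1q phagocytes and 0.870 in Cd3 barcodes. Of 20 MHC class I genes 1 was higher and 0 lower, with a median of -0.07. Without the plasmacytoid-marker barcodes 1 MHC class II gene was higher and 1 lower of 16 (median -0.10), and 1 MHC class I gene higher and 2 lower of 20 (median -0.08).

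Genes of dendritic identity and of the type 1 subset are read against the 10.8% higher and 4.51% lower over all genes. Of 27 identity genes measured, 8 were at least 1.5 times higher and 0 lower, but the median of 0.08 was near that of all genes and became -0.03 with barcodes weighted equally. Kit, the stem cell factor receptor, had 69 UMIs in 25 KPT members and 22 UMIs in 11 KP members (ratio 2.63, 1.61 to 4.47). Irf8 was at 1.96 (1.74 without the plasmacytoid-marker barcodes), Cd24a at 1.84, and Itgax (CD11c), Irf4 and Batf3 each at 1.52. Of 7 type 1 genes 5 were higher and 0 lower, with a median of 0.75 (0.80 without the plasmacytoid-marker barcodes), and these included Naaa at 1.72 and Wdfy4, needed for cross-presentation, at 1.68. The type 1 median was 1.555 among members with Mgl2 and 0.497 under a stricter rule of membership. The identity and type 1 lists share genes, Batf3 among them, so their counts are not separate evidence. Clec9a, the defining receptor of that subset, stayed low at 17 UMIs in KPT and 10 in KP members. In Xcr1 barcodes the median of the type 1 list was -0.02.

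Itgae, the integrin CD103 carried by type 1 cells and by some tissue type 2 cells, had a ratio of 10.7 (3.93 to 40.8), on 51 UMIs in 13 KPT members and 4 UMIs in 4 KP members. In KPT 7 members had 3 or more Itgae UMIs, all 7 with Mgl2, and no KP member did. The 13 KPT members with Itgae had a median of 239 Cst3 UMIs, against 55.5 in those without, and the 4 KP members a median of 168.5 against 40. In the 7 KPT members with 3 or more Itgae UMIs Clec9a summed to 3 UMIs. The Itgae ratio was 4.75 under the stricter rule of membership, 2.03 among members without Mgl2 and 20.9 without barcodes holding other lineages' markers, against 1.21 in Xcr1 barcodes.

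Of 21 maturation genes 0 were higher and 4 lower in KPT members, against 10.8% and 4.51% over all genes. The median was -0.20 (0 and 3 of 20 and -0.15 without the plasmacytoid-marker barcodes). The 4 lower genes were Ccl22, Ccr7 (the receptor that leads dendritic cells to lymph nodes, 0.503, 0.349 to 0.721), Marcks and Birc2. Cd40, Cd83, Cd86 and Cd80 had ratios between 0.829 and 1.02. In the cytokine list 2 of 9 were higher and 1 lower, against the same shares over all genes, with a median of 0.00. Areg, the growth factor amphiregulin, was at 3.52, Tnf at 2.20 on 42 and 16 UMIs, and Il1b at 0.875 (0.841 to 0.9097), which came to 0.620 with Mgl2 and 1.44 without it.

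Interferon-linked genes included several lower in KPT members. Of 23 type I interferon response genes measured, 7 were at least 1.5 times lower and 2 higher, with a median of -0.41 (7 and 1 of 21 and -0.38 without the plasmacytoid-marker barcodes), against 4.51% lower over all genes. The median was -0.02 among members with Mgl2, -0.14 under the stricter rule and -0.18 with barcodes weighted equally. Ifi27l2a had 385 UMIs in 44 KPT members and 661 in 41 KP members (ratio 0.489, 0.430 to 0.555). Slfn2 was at 0.622. On the other side Ly6a was at 2.08 and Isg15 at 1.55, but 55.2% of the KPT Isg15 UMIs lay in 1 barcode and it was 0.851 without the top barcodes. The median of this list was -0.05 in Xcr1 barcodes and 0.17 in C1q phagocytes. Interferon γ response genes had 1 higher and 2 lower of 12 and a median of 0.07.

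The Ifitm family, small membrane proteins that block virus entry, was high in these cells and 4 members were measured. Ifitm2 was at 2351 CPM in KPT and 3695 CPM in KP members (ratio 0.636, 0.598 to 0.677), Ifitm3 at 2777 and 3827 CPM (0.726) and Ifitm6 at 113.2 and 216.5 CPM (0.523). Ifitm1 was level, at 3029 and 3027 CPM (ratio 1.00, 0.942 to 1.06). Ifitm2 was lower in every cell group compared, at 0.632 in Xcr1 barcodes, 0.572 in C1q phagocytes and 0.631 in Cd3 barcodes. Ifitm1 had ratios of 0.240, 0.372 and 0.450 there, so among the groups compared it was level in the members alone. That difference was not tested. The median of the 4 was -0.56, and -0.49 without the plasmacytoid-marker barcodes.

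Receptors for uptake and sensing were mixed. Of 11 uptake and C-type lectin genes 5 were at least 1.5 times higher in KPT members and 1 lower, against 10.8% and 4.51% over all genes. The median was 0.12 (4 and 1 of 10 and 0.13 without the plasmacytoid-marker barcodes). Mrc1, the mannose receptor, had 59 UMIs in KPT and 29 UMIs in KP members (ratio 1.71), and Clec4e, the receptor Mincle, 64 and 30 UMIs (1.79). Cd209d was the lower one, with 161 and 225 UMIs (0.600, 0.487 to 0.738). Of 13 pattern recognition genes 1 was higher and 1 lower, Tmem173 (STING, the sensor adaptor for cytosolic DNA) at 1.59 and Irf5, a factor that drives inflammatory cytokines, at 0.602 (0.471 to 0.768), with a list median of 0.19 and of 0.03 without the plasmacytoid-marker barcodes. None of 8 Fc receptor and adaptor genes passed the fold, with a median of -0.18 and Fcer1g at 0.707.

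Lists of the described type 2 subsets were small here. Of 4 measured genes of subset A, a T-bet-expressing set, 2 were higher and 1 lower in KPT members, with a median of 0.35. Of 12 genes of subset B, a more inflammatory set, 1 was higher and 1 lower, with a median of -0.22, and without the plasmacytoid-marker barcodes 0 and 0 of 11 passed with a median of -0.20. In the S100 and annexin list 2 of 19 were higher, near the 10.8% over all genes, and 0 lower, with a median of -0.23. The 2 were S100a8 and S100a9, the calprotectin genes of neutrophils, at 3.36 and 13.3, and neutrophil markers lay mainly in 1 KPT barcode as given above.

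Of 5 monocyte markers 3 were lower and 0 higher, with a median of -0.59, or -1.34 without the plasmacytoid-marker barcodes. Fn1 (fibronectin) had 16 UMIs in KPT and 56 UMIs in KP members (ratio 0.240, 0.128 to 0.424). Ly6c2 was at 0.664 and at 0.379 without the plasmacytoid-marker barcodes, but at 0.943 without the top barcodes, since 39.3% of its KP UMIs were in 1. Wfdc17, a small secreted protein related to protease inhibitors, had 799 CPM in KPT and 1473 CPM in KP members (ratio 0.542, 0.489 to 0.601), with medians of 635 and 1289 CPM per member and UMIs in 57 and 49 members. Timp1, a metalloproteinase inhibitor, was at 0.356 (0.257 with Mgl2, 0.901 without it) and Pgf, placental growth factor, at 0.301 (0.223 and 0.591). Cebpb, a factor of myeloid cells, was at 0.649.

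Fabp5 had 273 UMIs in 37 KPT members and 725 UMIs in 33 KP members (ratio 0.316, 0.274 to 0.364). The ratio was 0.250 with Mgl2 and 0.721 without it, and 0.528 in C1q phagocytes. Hist1h1c, a linker histone gene, was at 0.438 (0.315 to 0.603). Of 9 histone genes 2 were lower and 0 higher, against 4.51% and 10.8% over all genes, with a median of -0.33. Over 14 alternatives the histone median ran from -0.377 to -0.033. It was -0.050 with members thinned to 3000 UMIs and -0.033 for genes with at least 200 UMIs.

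The remaining named genes on the higher side had few UMIs or were concentrated. Mmp12, a macrophage elastase, had 100 UMIs in 10 KPT members and 10 in 5 KP members (ratio 8.39), Qpct (glutaminyl cyclase) 80 UMIs in 22 and 14 in 11 (4.79), and Ccrl2, a chemerin-binding receptor, 131 in 16 and 30 in 17 (3.66). Clec12a, an inhibitory lectin, had 57 UMIs in 17 KPT and 10 in 5 KP members (4.78, or 4.85 without the plasmacytoid-marker barcodes, in which it stood at 542 and 244.5 CPM). Apoe, the apolipoprotein that is among the highest macrophage transcripts, was at 4.80, with 61.9% of its 63 KPT UMIs in 1 barcode.

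Metabolic lists were mostly level. Nuclear-encoded oxidative phosphorylation genes had 0 of 67 higher, 1 lower and a median of -0.04, and glycolysis genes 1 and 1 of 13 and -0.02, while in C1q phagocytes the glycolysis median was -0.76. Split by Mgl2, the glycolysis median was -0.22 among members with it and 0.32 among those without. Hypoxia response genes had 5 higher and 1 lower of 16, against 10.8% and 4.51% over all genes. Their median was 0.01 (4 and 1 of 15 and -0.05 without the plasmacytoid-marker barcodes). Mitochondrially encoded genes were higher, with 5 of 12 past 1.5-fold, 0 lower and a median of 0.51. Mitochondrial UMIs had a median share of 2.17% in KPT and 1.52% in KP members, and 2.48% and 1.82% over all kept barcodes, but 1.13% and 1.29% in Xcr1 barcodes, where the list median was -0.10. The part of RNA quality in this was not tested.

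**Figure D4:**
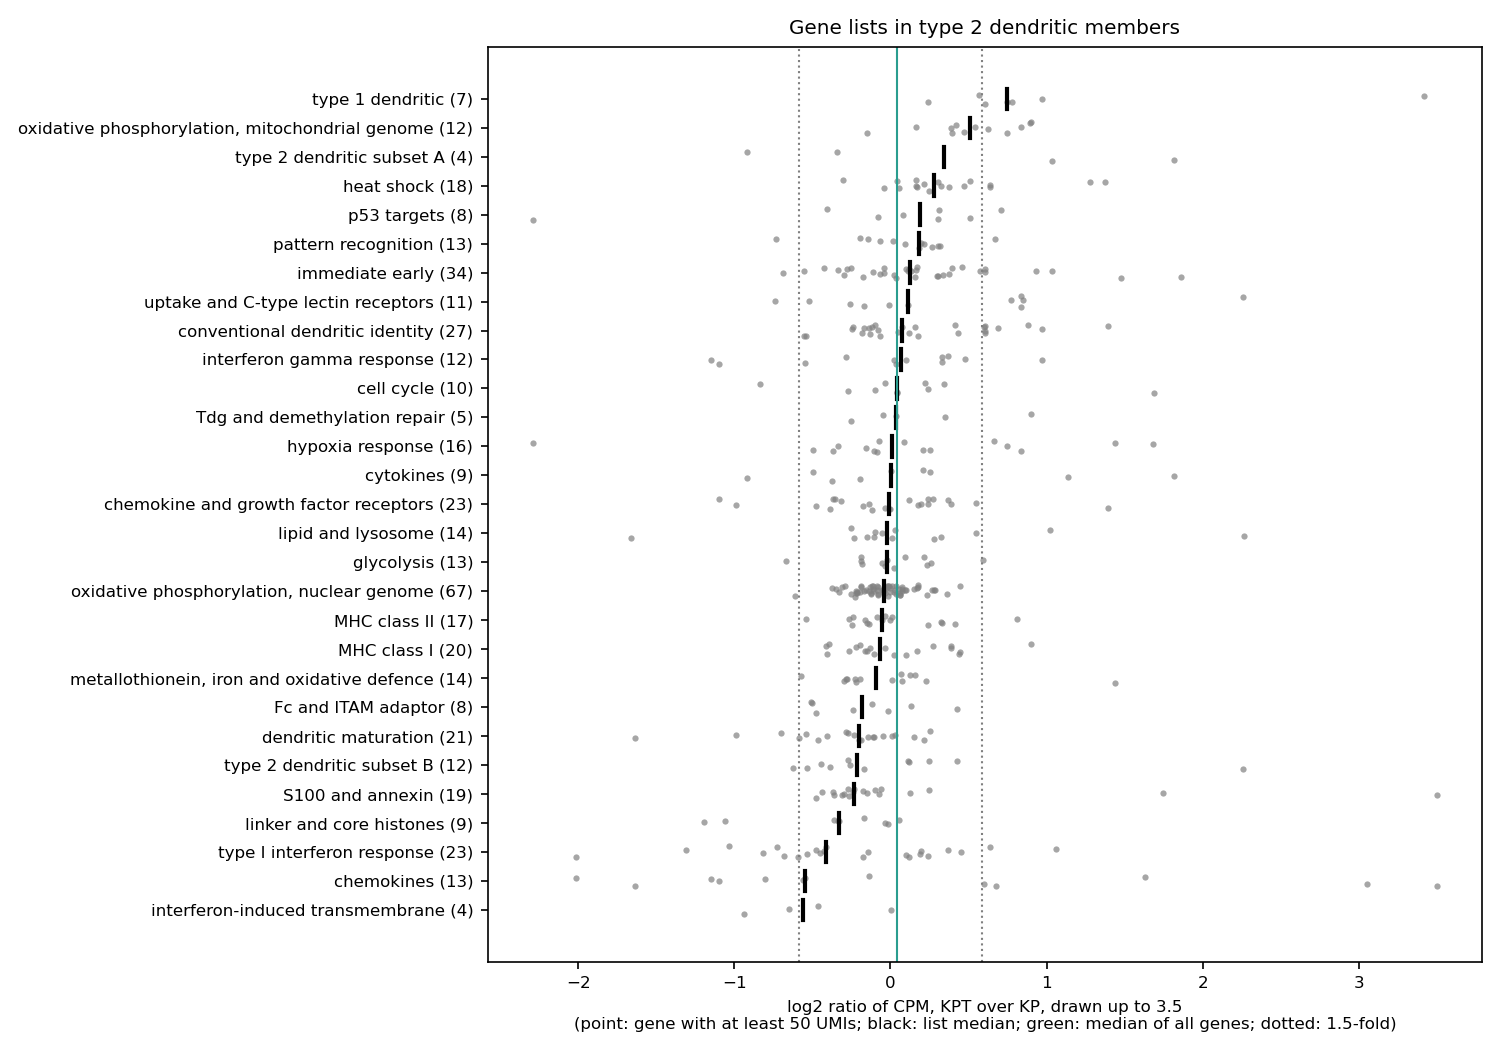
Log2 ratio of CPM, KPT over KP, of each gene with at least 50 UMIs (points, drawn up to 3.5) by gene list, with the number of genes, the list median (black) and the median of all genes (0.04, green). The type 1 dendritic and mitochondrial genome lists have medians of 0.75 and 0.51, and the chemokine, interferon-induced transmembrane and type I interferon lists -0.55, -0.56 and -0.41. The chemokine median is 0.13 with barcodes weighted equally.

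**Figure D5:**
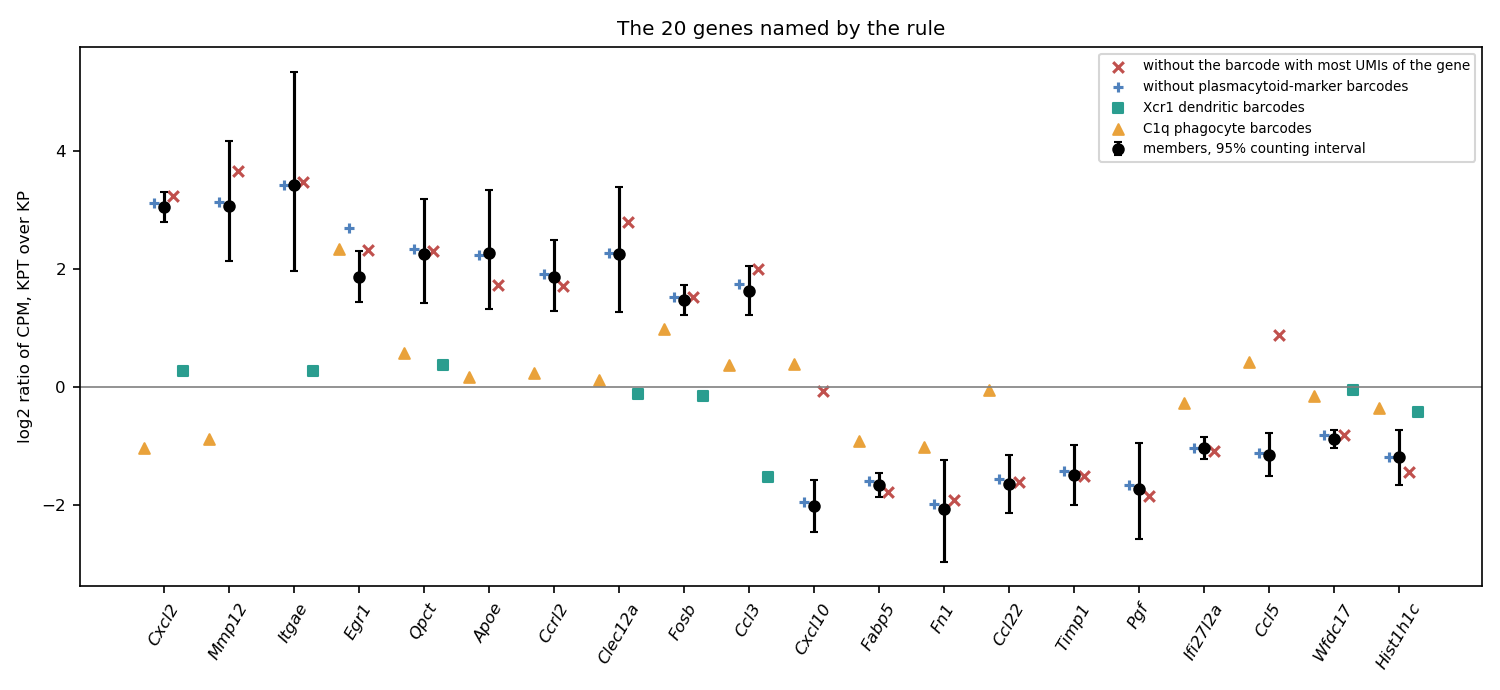
Log2 ratio of CPM, KPT over KP, of the 20 named genes in members (black, 95% counting interval), without the top barcode of each library, without the plasmacytoid-marker barcodes, in Xcr1 barcodes and in C1q phagocytes (the last 2 only where their interval spans at most 4-fold). Fosb and Wfdc17 keep their side of 0 without the top barcode, Ccl5 crosses 0, and Cxcl2 and Ccl3 are on opposite sides of 0 in members and in C1q phagocytes or Xcr1 barcodes.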

How the data were processed

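The deposited files hold raw UMI counts per gene and barcode for 2 libraries, which the authors made with Cell Ranger 6.0.1, per the file headers. The submitters' processing notes also name Seurat and mm10, with no role. Of the barcodes, 5693 in KPT and 5504 in KP had 200 or more genes and up to 10% mitochondrial UMIs, and doublets were not called. UMIs of the members were summed per library and scaled to CPM (Python 3.11.15, numpy 2.4.6, scipy 1.17.1, pandas 2.3.3). Ratios of CPM, KPT over KP, have exact conditional Poisson 95% intervals. The code was run on counts simulated from the same Poisson model, which cannot show how the intervals behave where UMIs concentrate in few barcodes. Intervals cover counting error only. A gene was compared with at least 50 UMIs over both libraries and counted past 1.5-fold, genes of the membership rule left out. List medians needed 4 such genes.

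Named genes were 10 each way, with at least 50 UMIs and a UMI in 10% of members where higher, ranked by the interval bound nearest 1, plus members of 38 lists and the leading programme genes. The members and lists were chosen with earlier results of these data known. Alternatives varied the barcode filter, membership, depth, scaling and UMI minimum.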

Additional observations from a re-analysis of the deposited data

Results flagged for a closer look

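Ccl3 had a ratio of CPM, KPT over KP, of 3.09 in the members and 0.346 in Xcr1 dendritic barcodes, opposite directions for the same contrast in 2 kinds of dendritic cell. There is 1 library per group, so the difference was not tested. In KPT members 36.9% of the Ccl3 UMIs were in 1 barcode and in KP members 51.6%, and without those barcodes the ratio in members was 3.997.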

How the results depend on the processing

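No paired analysis was possible because each group has 1 library. The count of 341 genes higher and 143 lower in KPT members became 67 and 59 with members thinned to 3000 UMIs, 935 and 411 with a minimum of 20 UMIs, and 53 and 24 with 200 UMIs. It was 286 and 168 when scaled by the median of gene ratios. Members with Mgl2 alone gave 223 higher and those without it 169, and these had fewer barcodes. The share ratio of 1.19 ran from 0.850 to 1.19 over 8 alternatives, with 0.863 after thinning and 1.06 under a stricter rule (Cd209a at least 2, no C1q, Cd3 or Fscn1). Of the 20 named genes 14 stayed past 1.5-fold in the same direction wherever a value could be had, over 238 values in all. The direction reversed for Ccl5 (2.07 without barcodes holding other lineages' markers, 1.84 without the top barcodes), Cxcl10 (1.48 with Mgl2) and Ccl22 (6.59 without Mgl2, on few UMIs). Apoe was at 1.44 with Mgl2, Fabp5 at 0.721 and Timp1 at 0.901 without it, and Cxcl10 at 0.958 without the top barcodes. The cause was not tested. The chemokine median turned from -0.55 to 0.34 with Mgl2 and to 0.59 without the top barcodes. The settings without plasmacytoid-marker barcodes, by Mgl2 and without top barcodes were chosen after seeing the data. Genes with few UMIs have wide counting intervals.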
